A study of Mus musculus with 10 samples.

Results

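The 10 mammary tumours of this series fall on 2 sides of their main axis of variation, and each side holds tumours of both genotypes. Side A holds 5 tumours (EIC 1, EIC 4, EIC 5, 16IC 2 and 16IC 5) and side B the other 5 (EIC 2, EIC 3, 16IC 1, 16IC 3 and 16IC 4), so that all 10 tumours of the series were placed. The tumours of each side were chosen by their score on that axis, which is computed from the same RNA counts that are described below. Differences between the sides are therefore a description, given with standard errors and without p-values.

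Each tumour came from a different female FVB/N mouse, of which 5 were EIC/WT (EIC below) and 5 were 16IC/WT (16IC below). Doxycycline at 2 mg/ml was given to every mouse, each tumour was frozen at end point, and whole-tumour RNA was sequenced. The series title names a HER2 variant and ENPP1, but the labels used here do not spell out EIC or 16IC, the promoter that drives the transgene, or the age of the mice. Numbers after a genotype only tell tumours apart. Side and genotype were spread about evenly, with 3 EIC and 2 16IC tumours in side A and 2 EIC and 3 16IC tumours in side B (Fisher's exact test, two-sided p = 1).

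The mammary epithelium has an inner layer of luminal cells, which make milk and carry keratins such as Krt8, Krt18 and Krt19, and an outer basal or myoepithelial layer, which contracts and carries Krt5 and Krt14. Tumours driven by HER2 are usually of luminal type. A piece of tumour also holds fibroblasts, adipocytes, vessels, immune cells and at times muscle, whose RNA is measured together with that of the tumour cells. In bulk RNA, fewer cells of a type and less RNA per cell cannot be told apart.

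The first principal component of log2 CPM (read counts as a rate per library size, scaled by TMM) held 43.1% of the variance of 14915 genes, and the second held 14.77%. On the first axis the side A tumours lay at -71.2 (EIC 1), -62.3 (EIC 5), -61.2 (EIC 4), -40.1 (16IC 2) and -37.1 (16IC 5). The side B tumours lay at 1.65 (EIC 3), 48.4 (EIC 2), 53.0 (16IC 1), 79.8 (16IC 4) and 89.1 (16IC 3). EIC 3 thus sat at the border, 46.0% of the way from the mean of side A to the mean of the other 4 side B tumours, and the tumour nearest to it over all genes was 16IC 2 of side A. The second axis ran from EIC 2 (70.5) and EIC 3 (54.2) to 16IC 1 (-51.0), so it parted the tumours of side B by genotype. Side A was the tighter of the sides, with a mean Spearman correlation across genes of 0.964 between its tumours, against 0.934 within side B and 0.907 between the sides. Genes are not independent replicates, and these values are a description. The median gene had an SD of 0.28 (log2 CPM) within side A and 0.42 within side B, and 72.7% of genes varied more in side B.

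**Figure D1:**
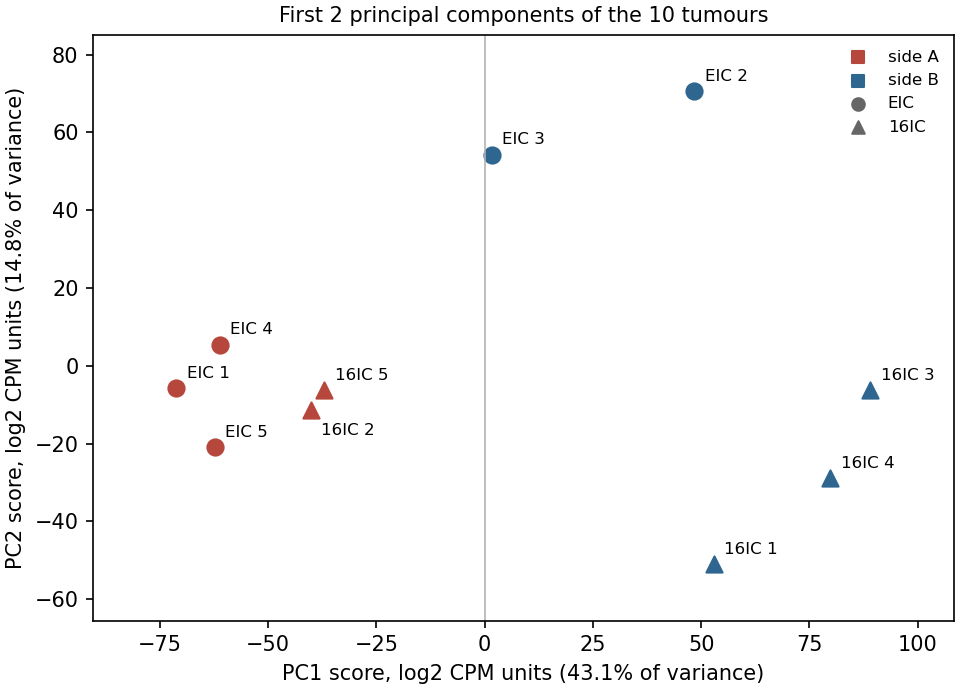
Scores of the 10 tumours on principal components 1 and 2 (x and y axes, log2 CPM units, share of variance in brackets), coloured by side and shaped by genotype. The side A tumours lie between -71.2 and -37.1 on the first axis, EIC 3 lies at 1.65 and the other side B tumours lie between 48.4 and 89.1.

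Libraries held 14813940 to 16947400 counts, on average 16584354 ± 506563 in side A and 15870562 ± 881159 in side B (SD, n = 5 each), a difference that did not pass an exact two-sided permutation test (p = 0.190, smallest possible p 0.00794). Mitochondrial genes took 0.549% to 1.41% of the counts. Epcam and Krt8, which mark epithelium, were high in all 10 tumours (1247 to 1585 CPM for Epcam in side A and 1227 to 2085 CPM in side B). Erbb2, the mouse gene of HER2, had 107 to 144 CPM in side A and 114 to 158 CPM in side B, and Enpp1 had 80.8 to 286 and 134 to 551 CPM, and the sides overlapped for both. Whether reads of an introduced HER2 sequence are counted under Erbb2 was not tested.

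A gene was called apart when the 5 tumours of a side did not overlap the 5 of the other and the log2 difference, with genotype in the fit, was at least 1 (2-fold). Of 14915 genes tested, 1099 (7.37%) were apart, 619 (4.15%) higher in side A and 480 (3.22%) higher in side B. Since the sides were set from these genes, nothing is read from these shares, and they serve as the background for the counts of list members below. Without EIC 3 there were 1741 genes apart, 1014 higher in side A and 727 higher in side B, of which 1059 were among the 1099.

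Values below are TMM-scaled CPM, listed for side A in the order EIC 1, EIC 4, EIC 5, 16IC 2 and 16IC 5, and for side B in the order EIC 2, EIC 3, 16IC 1, 16IC 3 and 16IC 4. Differences are log2 of side A over side B with genotype in the fit, so that positive values are higher in side A. Of the 5 marker genes, Krt14, a keratin of basal epithelium, had 466, 174, 64.3, 12.96 and 7.15 CPM in side A. In side B it had 0.416, 6.41, 0.216, 0 and 0.137 CPM (log2 difference 6.17, SE 0.89). The 3 EIC tumours of side A held the most Krt14, and the lowest side A tumour, 16IC 5, lay just above EIC 3. Krt19, a luminal keratin, had 391, 264, 446, 343 and 233 CPM in side A and 2.79, 243, 3.53, 3.04 and 0 CPM in side B. EIC 3 was as high in Krt19 as side A, so the sides overlapped, while the other 4 side B tumours held almost none (log2 difference 4.15, SE 1.55, and 7.03 without EIC 3).

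Fetub, which encodes fetuin B, a secreted protease inhibitor of the cystatin superfamily, had 1.85, 0.7502, 1.39, 2.02 and 1.700 CPM in side A and 452, 172, 201, 163 and 649.8 CPM in side B. Its gap was wide in both genotypes and EIC 3 stood fully with side B (log2 difference -7.68, SE 0.57). Gpx2, a glutathione peroxidase of epithelia, had 0.811, 0.625, 0.361, 1.19 and 2.64 CPM in side A and 41.5, 4.43, 7.92, 270.0 and 57.04 CPM in side B (-5.58, SE 1.04). The side B tumours spread widely in Gpx2, with 16IC 3 the highest and EIC 3 close to side A. Ptgds, the lipocalin-type prostaglandin D synthase, had 0, 0.313, 0, 0 and 0.176 CPM in side A and 3.15, 1.14, 5.98, 32.2 and 28.2 CPM in side B (-6.19, SE 1.14). The 3 16IC tumours of side B held more Ptgds than the 2 EIC tumours, and side A was at or close to 0.

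**Figure D2:**
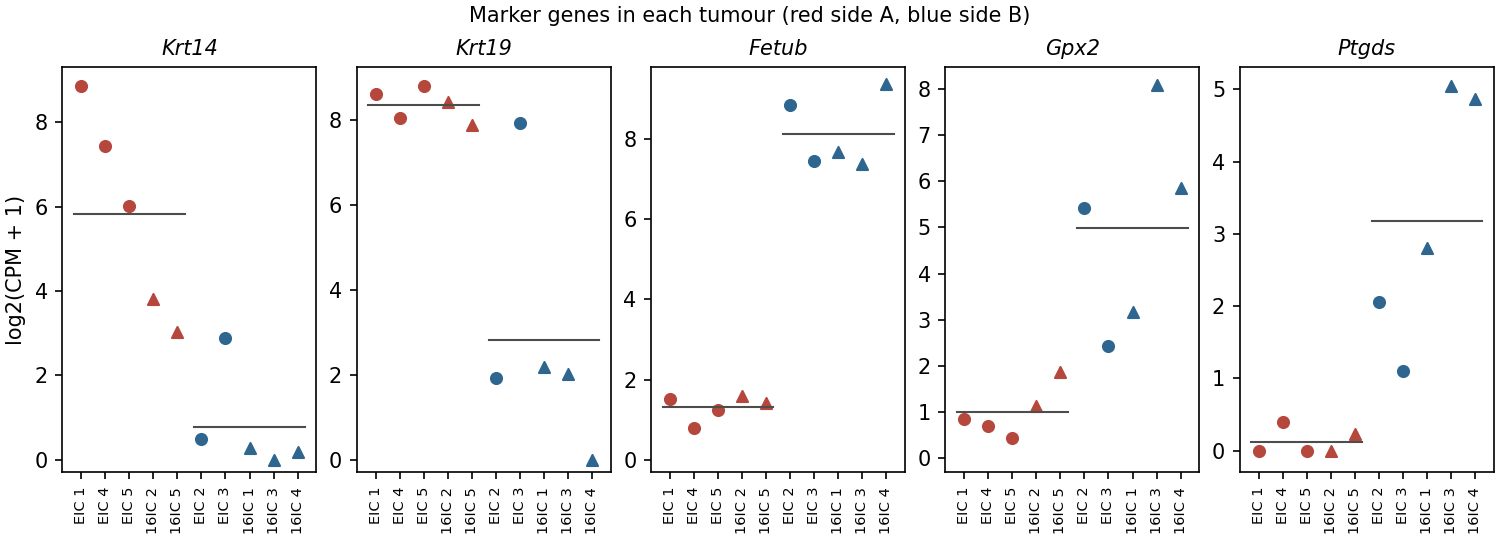
Level of the 5 marker genes (y axis, log2 of CPM + 1) in each tumour (x axis), red for side A and blue for side B, with circles for EIC, triangles for 16IC and a line at the mean of each side. EIC 3 is with side A for Krt19 (243 CPM) and with side B for Fetub (172 CPM).

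The marker names were checked against the wider keratin set. By FPKM, which allows for gene length, the luminal keratins Krt8 (684 ± 160.0 in side A and 389.8 ± 61.9 in side B) and Krt18 (707 ± 122 and 613 ± 287) were the most abundant on both sides (mean ± SD, n = 5). Krt19 followed with 176 ± 46.8 in side A, and Krt14 with 81.02 ± 108. Krt5, the usual partner of Krt14 in basal cells, was low on both sides (4.04 ± 6.96 and 0.173 ± 0.186 FPKM). Krt14 alone thus gives no basal name to side A, and the sides are called by letter.

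The genes with the largest differences were of mixed kinds. Among the 12 largest in side A were Npy (neuropeptide Y), Hp (haptoglobin, a plasma protein that binds haemoglobin), Foxa1 (a pioneer transcription factor of luminal cells), Ptgs2 (cyclooxygenase 2), Asprv1 (a protease of the epidermis), Anxa8 (an annexin), Brinp1, Slc25a48 (a mitochondrial carrier), and Plin1, Cidec and Pck1, which adipocytes use. Hp had 402, 315, 89.9, 139.7 and 53.6 CPM in side A and 13.3, 5.27, 2.95, 0.182 and 0.274 CPM in side B (5.56, SE 0.80). Npy had 7.48, 0.625, 1.02, 75.4 and 146 CPM in side A, with the 16IC tumours far above the EIC tumours, and only 3 counts in all of side B. Foxa1 had 6.72, 14.7, 2.17, 14.99 and 6.33 CPM in side A and 0.238, 0.359, 0.504, 0 and 0 CPM in side B (5.31, SE 0.89), with all side A tumours above 2 CPM.

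The 12 largest in side B were, besides Fetub, Gpx2 and Ptgds, the gene Wfdc5 (a whey acidic protein family member), Dlgap1 (a synaptic scaffold), Ppp2r2b and Ppp2r2c (regulatory subunits of protein phosphatase 2A), Dnaic2 (an axonemal dynein chain), Aif1l, Hs3st3a1 (a heparan sulfate sulfotransferase), Otoa (otoancorin) and Unc79 (a subunit of the NALCN channel complex). Dlgap1 had 0.637, 0.813, 0.181, 0.535 and 2.64 CPM in side A and 114, 85.98, 88.97, 129 and 177 CPM in side B (-6.89, SE 0.52), with little spread across side B. Wfdc5 rested largely on EIC 2, with 400.0, 1.498, 2.45, 13.4 and 7.27 CPM in side B and 0.5795, 0.125, 0, 0.238 and 0.235 CPM in side A (-8.30, SE 1.71). Ppp2r2c had 0.464, 0.188, 0.181, 0.833 and 1.06 CPM in side A and 44.8, 58.1, 4.83, 77.5 and 41.2 CPM in side B (-6.36, SE 0.79), with 16IC 1 well below the rest of side B. Hs3st3a1 has a close paralogue, Hs3st3b1, which was also higher in side B (3.73 to 66.5 CPM in side A and 155 to 804 CPM in side B), and reads shared between them make both uncertain.

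**Figure D3:**
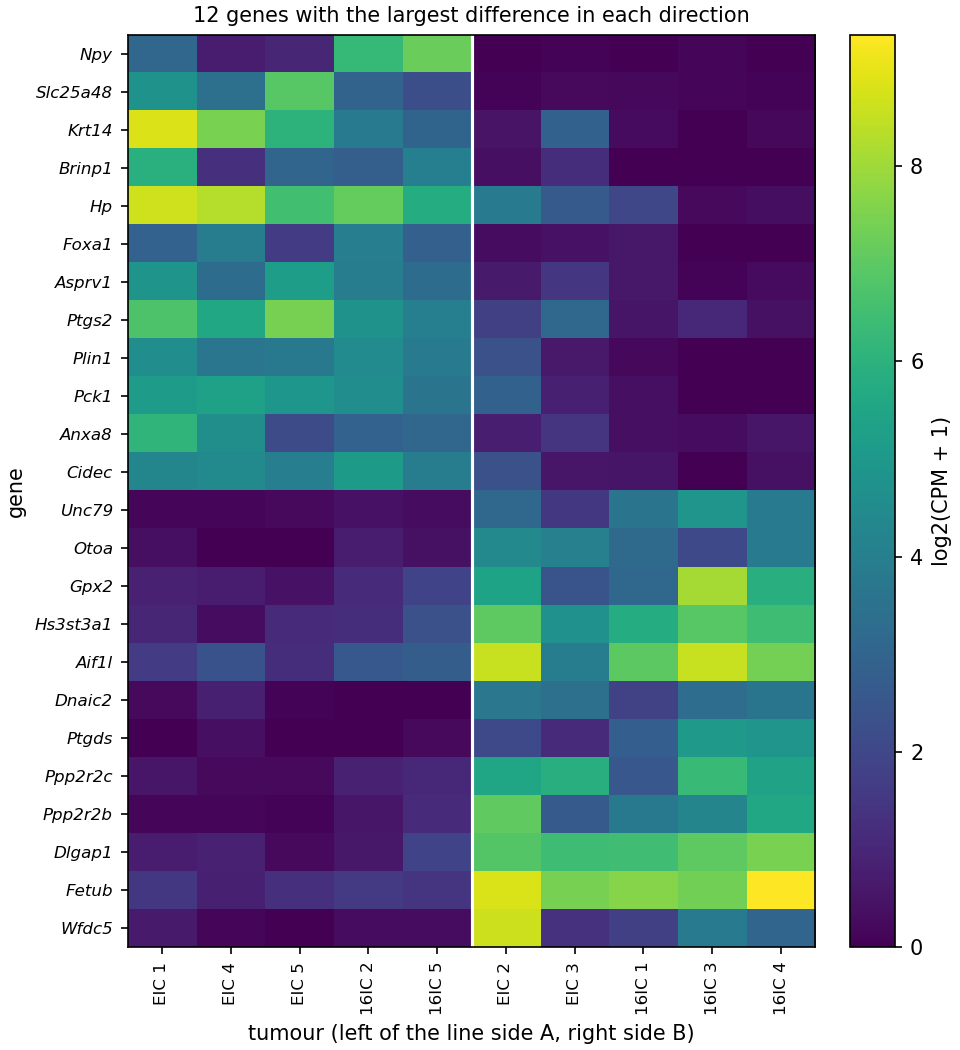
Heat map of log2(CPM + 1) (colour scale) for the 12 genes with the largest difference in each direction (rows) in each tumour (columns, side A left of the line). The row of Dlgap1 is even across side B (86.0 to 177 CPM), and that of Wfdc5 is led by EIC 2 (400.0 CPM).

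Upstream sequences are printed for 3 of these genes, because Ptgs2 and Ptgds are enzymes of 1 pathway with opposite sides and Fetub is the marker with the largest difference. Their RefSeq starts lie 0 (Ptgs2), 48 (Fetub) and 297 (Ptgds) bases from the gene ends in the table. Each line holds the 250 bases before the RefSeq start, 5′ to 3′ on the gene's strand, from RefSeq promoters of GRCm38.p6, the reference mouse and not the FVB/N strain. Capitals mark matches to the TATA box (TATAAA), to an AP-1 motif (TGANTCA) or to a forkhead motif that is spelled TGTTTAC. All were searched on both strands, and the motifs do not overlap one another in these windows.
Ptgs2 (chr1:150099781-150100030, plus strand): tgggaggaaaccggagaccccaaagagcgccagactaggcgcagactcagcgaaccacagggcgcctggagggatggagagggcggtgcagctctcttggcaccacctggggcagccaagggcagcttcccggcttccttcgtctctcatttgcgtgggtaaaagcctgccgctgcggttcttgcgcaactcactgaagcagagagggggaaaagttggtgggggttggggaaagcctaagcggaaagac
Fetub (chr16:22918132-22918381, plus strand): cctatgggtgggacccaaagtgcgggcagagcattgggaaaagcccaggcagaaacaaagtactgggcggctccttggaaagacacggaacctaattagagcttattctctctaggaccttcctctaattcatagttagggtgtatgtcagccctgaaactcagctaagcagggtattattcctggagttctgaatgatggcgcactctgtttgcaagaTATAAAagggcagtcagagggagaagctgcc
Ptgds (chr2:25469750-25469999, minus strand): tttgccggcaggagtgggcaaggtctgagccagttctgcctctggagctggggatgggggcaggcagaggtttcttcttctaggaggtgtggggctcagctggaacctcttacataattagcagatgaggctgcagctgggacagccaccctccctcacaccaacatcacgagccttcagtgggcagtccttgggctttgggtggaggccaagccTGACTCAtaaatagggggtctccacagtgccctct
The Fetub sequence holds TATAAA, starting 31 bases before the start, and the Ptgds sequence holds TGACTCA, starting 35 bases before it. No match was found in the Ptgs2 window, which says only that these letters are not in it. TATAAA was found in 12.4% of 32851 promoters in the table, in 6.5% of those of tested genes, in 10.9% of the 458 matched genes that were apart and higher in side A, and in 6.15% of the 358 higher in side B. For the AP-1 motif these shares were 6.75%, 4.3%, 6.33% and 7.26%, and for the forkhead motif 3.17%, 2.13%, 3.06% and 1.96%. A match is a description and not evidence of a bound site.

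Of 21 tested basal and myoepithelial genes 17 were higher in side A, with 4 apart (Krt14, Lamb3, Lama3 and Oxtr), and 1, Dst, a linker of hemidesmosomes, was apart and higher in side B (49.4% of all tested genes were higher in side A at any size). The list's median log2 difference was 1.11, against -0.01 for all tested genes. Lamb3, a chain of laminin 332, had 438, 382, 672, 411 and 463 CPM in side A and 2.32, 209, 27.7, 5.66 and 5.004 CPM in side B (3.65, SE 1.08). Again EIC 3 stood between, and without it the difference was 5.89. Without EIC 3, Krt17, Trp63, Cnn1, Tagln and Cdh3 were apart as well, and 12 members were apart in all when the filter was applied to the other 9 tumours. Oxtr, the oxytocin receptor of myoepithelial cells, had 29.8 to 106 CPM in side A and 0.9597 to 13.4 CPM in side B.

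Of 26 luminal genes 17 were higher in side A and 9 in side B, 3 were apart, all higher in side A, and the list's median difference was 0.18. Beside Foxa1 they were Aldh1a3, a retinaldehyde dehydrogenase of luminal progenitors, with 59.4, 90.96, 37.6, 136 and 203 CPM in side A and 6.48, 8.51, 9.94, 8.03 and 22.6 CPM in side B (3.36, SE 0.36), and the ETS factor Elf3 (24.2 to 57.02 against 6.58 to 17.9 CPM). Runx1, from the list of luminal progenitor genes, had 77.03 to 223 CPM in side A and 18.4 to 54.1 CPM in side B. Among 23 milk and secretory genes Muc15 (220.1 to 743 against 32.97 to 211 CPM) and Mfge8 (3834 to 7131 against 1064 to 3831 CPM) were apart, both higher in side A, while the casein Csn3 overlapped (6442 to 18118 and 4108 to 29575 CPM). Sfn, an epithelial 14-3-3 protein, was the single apart member of 13 squamous genes, with 72.4, 75.7, 77.4, 88.3 and 79.5 CPM in side A and 21.03, 17.3, 11.9, 17.8 and 8.09 CPM in side B (2.35, SE 0.23). The shares apart in the milk (8.7%) and squamous (7.69%) lists were close to the 7.37% of all tested genes, so nothing is read from these counts.

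Of 963 tested genes that the table marks as transcription factors, 36 (3.74%) were apart and higher in side A and 23 (2.39%) apart and higher in side B. Side A held more Grhl3, a grainyhead factor of epidermal barrier (3.21 to 6.08 against 0 to 0.2397 CPM), Dlx5 (0.762 to 20.5 against 0 to 0.419), Id4, which basal progenitors use (1.204 to 24.5 against 0 to 0.659), Bhlhe41 (268 to 406 against 9.22 to 122), Cebpa (65.1 to 117 against 16.7 to 29.6) and Klf4 (8.33 to 24.05 against 0.851 to 7.96). Side B held more Bhlha15, known as Mist1, a factor of secretory cells (32.7 to 157 against 5.68 to 30.7 CPM), Creb3l1, a secretory pathway factor (126 to 463 against 48.7 to 90.3), Esrrg, an orphan nuclear receptor (37.5 to 65.3 against 3.19 to 17.9), Arnt2 (8.94 to 65.2 against 0.997 to 5.902) and Etv1 (126 to 340.3 against 23.2 to 104). These factors were named after their values were seen.

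In the Wnt pathway, where secreted ligands act through Frizzled receptors on beta-catenin and Tcf factors, 7 of 28 members were apart and higher in side A and 1 higher in side B. The ligand Wnt7b had 123, 136, 146, 50.5 and 62.1 CPM in side A and 3.45, 40.9, 2.59, 14.7 and 0.686 CPM in side B (2.91, SE 0.78), with EIC 3 the nearest to side A. The receptor Lgr6 (82.1 to 202 against 0 to 43.5 CPM), the Dishevelled antagonist Nkd2 (40.7 to 414 against 5.55 to 36.00), and the factor Tcf7 (10.7 to 36.8 against 1.01 to 6.47) followed the same order, as did Wnt5b, Sfrp2 and Dkk3. Sfrp1, a secreted Wnt antagonist, was the member higher in side B (157 to 462 against 40.2 to 119 CPM). The list's median was 0.44 (0.12 without EIC 3).

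In the TGF-beta, activin and BMP list 4 of 26 members were apart, all higher in side A. They were the BMP targets Id1 (33.7, 21.1, 37.8, 20.04 and 27.8 CPM in side A and 3.802, 17.02, 5.91, 4.56 and 5.48 CPM in side B), Id3 and Id4, and follistatin, Fst, which binds activin (2.23 to 16.1 against 0.426 to 1.198 CPM). In the Notch list Notch1 (132 to 202 against 12.5 to 126 CPM) and Lfng, which glycosylates Notch (14.7 to 87.4 against 2.73 to 10.4 CPM), were apart of 20. The ERBB list was mixed, with 7 of 18 members higher in side A and 11 in side B. In it 3 ligands were apart, all higher in side B. Without EIC 3, the ligands Epgn and Nrg1 were apart as well, both higher in side A. Tgfa, a ligand of EGFR, had 32.9, 57.02, 35.4, 41.9 and 40.4 CPM in side A and 125, 135, 88.5, 97.6 and 76.8 CPM in side B (-1.36, SE 0.18). Egf had 0.654 to 1.06 CPM in side A and 1.95 to 6.92 in side B, and Nrg2 had 7.53 to 48.96 and 65.01 to 85.3 CPM. Of 26 MAPK feedback and immediate-early genes, 11 were higher in side A and 15 in side B. Dusp4, a MAPK phosphatase (133 to 205 CPM in side B and 55.6 to 102 in side A), and Etv1 were apart, both higher in side B. The share apart, 7.69%, was close to the 7.37% of all tested genes. Without EIC 3, Jun and Egr3 were apart too, both higher in side A.

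Prostaglandin genes went both ways. Cyclooxygenases turn arachidonic acid, released by phospholipase A2, into a common precursor from which separate synthases make each prostaglandin. Of 18 members 5 were apart and higher in side A and 2 higher in side B. Ptgs2, whose upstream sequence is printed above, had 106, 46.6, 171, 26.6 and 15.4 CPM in side A and 2.38, 8.03, 0.432, 1.09 and 0.343 CPM in side B (4.65, SE 0.52). The phospholipase Pla2g4a (60.7 to 109.6 against 8.21 to 31.99 CPM) and the PGE2 receptors Ptger2 (12.4 to 20.3 against 0.206 to 3.89), Ptger3 (1.69 to 4.17 against 0.0608 to 1.07) and Ptger4 (20.1 to 45.1 against 1.703 to 10.8) were also higher in side A. Ptgds and the PGF receptor Ptgfr, with 0.406, 0.875, 0.361, 0.595 and 0.586 CPM in side A and 3.92, 5.09, 3.46, 13.4 and 10.01 CPM in side B (-3.46, SE 0.47), were higher in side B.

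Of 33 NRF2 and glutathione genes 2 were apart in each direction, and the median difference was -0.11. The quinone reductase Nqo1, a common NRF2 target, had 57.2, 43.3, 46.5, 111 and 121 CPM in side A and 3.15, 27.98, 3.03, 4.07 and 5.21 CPM in side B (3.20, SE 0.74), whereas Gpx2, another common target, was on the other side. Me1, malic enzyme, which makes NADPH, had 154, 128, 145, 199 and 182 CPM in side A and 800.3, 520.1, 661, 757 and 758 CPM in side B (-2.07, SE 0.16), an even difference in both genotypes. Gsto1 was higher in side A (55.5 to 88.3 against 13.5 to 46.4 CPM). Without EIC 3, Gstm1, Gstm2, Gstm5 and Akr1c13 were apart too, all higher in side B.

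Glycolysis genes were higher in side B. Of 29 members 27 were higher in side B (50.6% of all tested genes were), 5 of them apart, with a median difference of -1.28 and of -1.19 without EIC 3. Hexokinase 2, Hk2, which takes the first step, had 32.8, 23.8, 11.02, 20.2 and 18.5 CPM in side A and 97.2, 125, 111, 94.8 and 119.9 CPM in side B (-2.39, SE 0.26). Hk1 (855 to 1106 CPM in side B and 299 to 533 in side A), phosphofructokinase Pfkl (907 to 1377 and 401 to 577), aldolase Aldoa (1404 to 4183 and 944 to 1291) and Pdk1, which holds back pyruvate entry into mitochondria (97.8 to 173 and 25.1 to 54.2), were the other 4. The summed level of the list was 9242 to 11047 CPM in side A and 10782 to 23468 CPM in side B, with EIC 3 the highest and 16IC 1 inside the range of side A. Without 16IC 1, 14 members were apart. Nuclear genes of the respiratory chain were mostly higher in side B too (28 of 31), but by a median of -0.25 and with none apart.

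Of 26 sterol and fatty acid genes the desaturase Scd2 (1232 to 2225 CPM in side B and 587 to 924 in side A), the elongase Elovl5 (158 to 480.0 and 88.9 to 142) and Me1 were apart and higher in side B, and the desaturase Fads1 (172 to 258 CPM in side A and 37.5 to 109 in side B) was higher in side A. Serine and one-carbon genes formed a list added after their values were seen. Phgdh, the first enzyme of serine synthesis, had 15.2, 11.9, 24.6, 10.9 and 10.5 CPM in side A and 69.7, 97.96, 74.1, 150.2 and 141 CPM in side B (-2.89, SE 0.35), and glycine decarboxylase, Gldc, had 0.313 to 2.29 and 7.91 to 176 CPM. Psph, the last enzyme of serine synthesis, had 9.25 to 15.8 CPM in side A and 17.9 to 29.4 in side B, without overlap but under 2-fold (-0.72, SE 0.20). It overlaps Cct6a on the opposite strand and is uncertain. Psat1, the enzyme between them, overlapped (80.6 to 272 and 98.4 to 139 CPM), and the amino acid transporter Slc1a5 was higher in side A (28.8 to 54.02 against 8.21 to 21.4 CPM).

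Side B held more RNA of matrix proteins typical of cartilage, in a list also added after values were seen. Of 17 tested members 7 were apart, all higher in side B, and the summed level was 998 to 2136 CPM in side A and 5100.3 to 5602 CPM in side B, where EIC 3 stood with the rest. Comp, cartilage oligomeric matrix protein, had 8.52, 76.3, 6.68, 40.1 and 53.00 CPM in side A and 1359, 192, 632, 1299 and 880.1 CPM in side B (-4.50, SE 0.82). Chondromodulin, Cnmd, had 9.21, 5.19, 8.07, 30.98 and 92.8 CPM in side A and 244, 139.9, 166, 276 and 106 CPM in side B (-3.09, SE 0.67). The collagens Col9a1 (1292 to 2192 CPM in side B and 321 to 691 in side A), Col11a1 (633 to 2269 and 186 to 488), Col11a2 (39.5 to 160.0 and 6.07 to 27.8) and Col27a1 (26.4 to 415 and 6.38 to 22.2) and the factor Sox5 were the others. The genes that most define cartilage did not follow: Col2a1 had 0.238 to 15.01 CPM in side A and 1.25 to 7.12 in side B, Sox9 differed by 0.04 (SE 0.30), and Acan, which was not tested, was highest in EIC 1 of side A.

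Another list added after values were seen, of clock genes, had 4 members apart and higher in side B and 2 higher in side A of 17. The clock runs on a feedback loop in which Dbp, Nr1d1, Nr1d2 and Ciart are direct outputs of the Clock and Arntl pair, and Cry and Bhlhe factors are repressors. Dbp had 13.3, 13.2, 5.96, 19.4 and 23.2 CPM in side A and 115, 47.8, 36.5, 236 and 166 CPM in side B (-2.84, SE 0.49), and Nr1d1 had 18.4, 18.1, 8.67, 18.4 and 27.7 CPM in side A and 120.3, 88.1, 38.7, 132 and 80.96 CPM in side B (-2.33, SE 0.38). Nr1d2 and Ciart followed (-1.02 and -2.90). Bhlhe41 had 268, 401, 373, 344 and 406 CPM in side A and 41.3, 122, 9.22, 19.3 and 12.2 CPM in side B (3.42, SE 0.58), and Cry1 was also higher in side A (1.33), while Arntl did not differ beyond its error (-0.07, SE 0.17). Repressors did not all go 1 way. Bhlhe40 (-1.71, SE 0.50) and Cry2 (-0.60, SE 0.18) had negative differences, with overlap between the sides. The hour of collection is not in the labels used here and its part in the result was not tested. Dbp overlaps Sphk2 and Nr1d1 overlaps Thra on the opposite strand, and since the strand setting is not known, both are uncertain.

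Of 26 junction genes the claudins Cldn2 (25.03, 26.1, 31.2, 60.7 and 22.3 CPM in side A and 0.178, 8.57, 2.09, 2.68 and 0.891 CPM in side B) and Cldn23 were apart and higher in side A, and desmocollin Dsc2 (75.7 to 136 CPM in side B and 22.1 to 41.1 in side A) and plakophilin Pkp2 were higher in side B. E-cadherin, Cdh1, had 555 to 733 CPM in side A and 319 to 518 in side B, without overlap but under 2-fold (0.65, SE 0.13). Of 17 tested cilia and ion transport genes 8 were higher in side A and 9 in side B, and 1 was apart in each direction. Cfap43, a gene of cilia, was higher in side A (80.4 to 194 against 10.2 to 34.3 CPM). The chloride cotransporter Slc12a2 was higher in side B (525 to 1331 against 239.6 to 406 CPM).

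Of 24 ENPP and extracellular nucleotide genes 16 were higher in side B (median -0.52), and 2 were apart in each direction. Their summed level was 1243 to 1802 CPM in side A and 2023 to 2625 CPM in side B, without overlap. A large part of the sum in side B was Slc29a1, given below, and Enpp1 itself overlapped. Alpl, tissue-nonspecific alkaline phosphatase, which like ENPP enzymes acts on extracellular phosphates, had 129, 142, 153, 192 and 248 CPM in side A and 16.87, 50.8, 13.9, 24.3 and 6.58 CPM in side B (2.97, SE 0.49). Enpp2, autotaxin, which makes lysophosphatidic acid, had 2.93 to 13.3 CPM in side A and 0.0608 to 1.62 in side B. The adenosine receptor Adora1 had 9.56, 2.06, 6.44, 16.1 and 25.7 CPM in side A and 32.8, 38.1, 122, 172 and 173 CPM in side B (-2.73, SE 0.36), and the nucleoside transporter Slc29a1 was also higher in side B (656 to 1309.9 against 279.6 to 589 CPM).

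RNA of adipocytes, fibroblasts and macrophages was higher in side A. All 17 tested adipocyte genes were higher in side A and 13 were apart, with a median difference of 3.77 (3.76 without EIC 3). Their summed level was 615 to 879.5 CPM in side A and 179 to 384 CPM in side B, without overlap. Adipoq, which encodes adiponectin, had 15.1 to 24.4 CPM in side A and 0 to 4.63 CPM in side B, and Cfd, the adipocyte protease adipsin, had 115, 95.5, 83.3, 139.9 and 86.5 CPM in side A and 21.3, 4.73, 4.39, 0.304 and 0.137 CPM in side B (4.42, SE 0.95). Of the side B tumours EIC 2 held the most Cfd, and 16IC 3 and 16IC 4 were close to 0. Plin1, Cidec and Pck1 among the largest differences above are genes of this kind.

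Of 28 fibroblast and matrix genes 27 were higher in side A and 9 were apart (17 without EIC 3), with a summed level of 5229.9 to 11266 CPM in side A and 845 to 6241 CPM in side B. The sums overlapped, since EIC 3 (6241 CPM) was above EIC 5, 16IC 2 and 16IC 5. Dermatopontin, Dpt, had 64.3, 51.01, 19.99, 29.7 and 40.6 CPM in side A and 19.3, 8.51, 9.73, 1.28 and 6.58 CPM in side B (2.14, SE 0.53), and periostin, Postn, had 297 to 615 and 50.9 to 241 CPM. In the list of mesenchymal transition genes 4 of 22 were apart, all higher in side A, namely the repressor Snai1 (35.9, 31.7, 47.6, 24.98 and 23.2 CPM in side A and 5.29, 15.6, 3.46, 5.53 and 4.87 CPM in side B), tenascin C, Tnc (300.2 to 942 against 16.4 to 261 CPM), Mmp3 and Tgfbi.

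All 24 macrophage and monocyte genes were higher in side A and 6 were apart, with a summed level of 2417 to 3383 CPM in side A and 1323 to 1722 CPM in side B, without overlap. Lyz2, lysozyme of myeloid cells, had 612, 349, 293, 469 and 378 CPM in side A and 177, 157, 86.9, 111 and 98.8 CPM in side B (1.71, SE 0.24), and the endotoxin coreceptor Cd14 had 278 to 772 and 76.6 to 263 CPM. Lyz1 is a close copy of Lyz2 and is uncertain. Of 19 chemokines 6 were apart, all higher in side A, among them Ccl8 (42.6, 29.7, 25.1, 15.9 and 28.1 CPM in side A and 12.5, 10.9, 8.501, 2.43 and 6.72 CPM in side B), Ccl6, Ccl7 and Cxcl12 (48.3 to 109.6 against 9.92 to 40.7 CPM). Dendritic cell genes had 3 of 8 apart and higher in side A, with Itgax at 17.96 to 31.02 against 5.58 to 12.9 CPM.

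Only 6 of 23 T cell genes passed the filter, and Cd3e, which defines T cells, was too low to test at 0 to 1.45 CPM over all 10 tumours. All 6 had a positive fitted difference (Lck only 0.03), with a summed level of 50.1 to 94.1 CPM in side A and 22.9 to 41.7 CPM in side B, without overlap. Thy1, which fibroblasts also carry, and Tcf7, which is also a Wnt factor and the single apart member, made up most of that sum. The 6 tested B and plasma cell genes had positive fitted differences too (Xbp1 only 0.08), with Jchain and Pou2af1 apart, and the summed level was 889 to 1500.4 CPM in side A and 533 to 1711 CPM in side B. Xbp1, which secretory epithelium also uses, and Sdc1, which epithelium also carries, made up most of it. Of 10 neural and Schwann cell genes S100b was apart and higher in side B. Neutrophil, NK and endothelial lists had no member apart. None of 17 tested skeletal muscle genes was apart, and the summed level was 3335 CPM in EIC 2, 1477 in EIC 1 and 5.47 in 16IC 3. Acta1, a muscle actin, had 512, 77.2, 145, 11.7 and 4.69 CPM in side A and 1189.9, 1.32, 194, 0.0608 and 37.7 CPM in side B. The fitted differences of this list were all negative, but their direction is not firm. For Acta1 the fitted value was -2.24 (SE 1.68), while the mean log2 difference was 2.11 within EIC and -0.56 within 16IC, and for Myh4 it was -1.97 (SE 1.78) against 3.02 and 0.54. With the listed genes of the non-epithelial lists and the mitochondrial genome left out, the first axis held 43.3% of the variance. All 10 tumours then lay on the same sides, with EIC 3 at 44.5% of the way. Only listed genes were removed and other RNA of these cells stayed in, so this cannot show their part in the axis. The part of these other cells in the axis and in the other results was not tested.

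**Figure D4:**
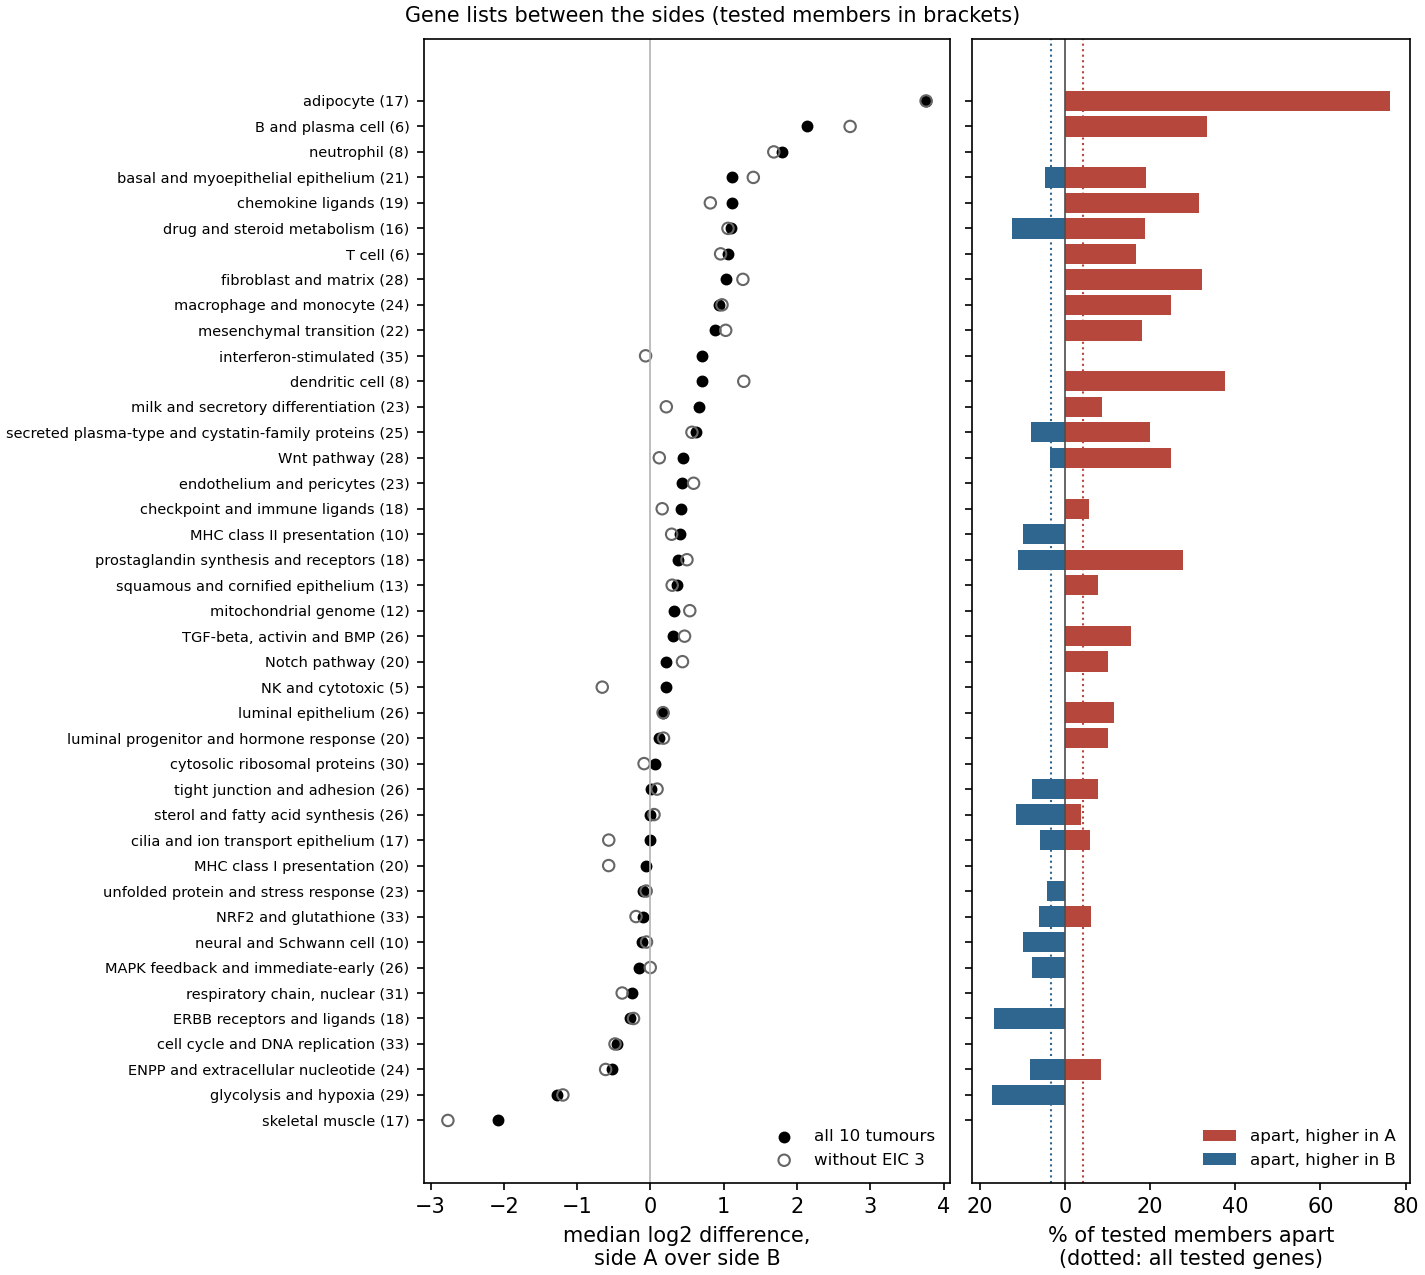
Median log2 difference of side A over side B for each gene list (left, filled points with all 10 tumours, open points without EIC 3) and the percent of tested members apart (right, red higher in side A, blue higher in side B, dotted lines at 4.15% and 3.22% for all tested genes). Adipocyte genes lie at the top with 13 of 17 members apart, and glycolysis genes have 5 of 29 apart on side B.

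Cell cycle and ribosomal protein lists had no member apart, with medians of -0.46 over 33 and 0.06 over 30 genes. Top2a, a gene of dividing cells, had 51.3 to 179.6 CPM in side A and 68.5 to 165 CPM in side B. The interferon-stimulated list also had no member apart, though 34 of 35 members had a positive difference, and its median of 0.70 became -0.07 without EIC 3. Its summed level was 475 and 873 CPM in the EIC tumours of side B but 9953, 2791 and 3069 CPM in the 16IC tumours of side B. In side A it was 3607, 5711 and 3944 CPM in EIC and 1743 and 1767 CPM in 16IC. The order of the sides thus turned with genotype.

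An interaction term of side and genotype was fitted for all 14915 genes with edgeR's quasi-likelihood test. The sides were set from the same counts and the interferon pattern was seen in the same tumours, so the p-values take the sides as given and add no independent support for it. The term was called for 11 genes (0.0738%) at a Benjamini-Hochberg adjusted p under 0.05, and DESeq2 called 562. Of the 11, Usp18, Ifit1, Rtp4, Psmb8 and H2-T10 are genes that interferon induces. Usp18, a protease that removes ISG15, had 53.95, 114, 82.7, 15.8 and 16.1 CPM in side A and 2.61, 7.91, 95.3, 64.6 and 48.6 CPM in side B (interaction log2 -6.11, adjusted p = 0.0431, edgeR). In EIC the side A tumours were higher in Usp18, and in 16IC the side B tumours were higher. Ifit1 had 59.1, 145, 77.7, 25.04 and 27.3 CPM in side A and 3.27, 5.33, 111, 61.3 and 37.6 CPM in side B (-5.87, adjusted p = 0.0496, edgeR), in the same order. Apod, apolipoprotein D, had 42.01, 31.3, 38.5, 26.5 and 29.8 CPM in side A and 6.12, 3.42, 59.8, 120.4 and 77.7 CPM in side B (-4.58, adjusted p = 0.04298, edgeR). Col16a1, a fibril-associated collagen, had 547, 467, 549, 559 and 621 CPM in side A and 423, 352, 66.1, 61.97 and 93.8 CPM in side B (2.57, adjusted p = 0.04298, edgeR), so that its side difference was large in 16IC and small in EIC. Ogfr, Ccdc158, Il18bp and Slc44a3 were the other 4. Leaving out a tumour moved the count from 0 (without EIC 5, 16IC 2, 16IC 4 or 16IC 5) to 61 (without EIC 2).

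With side as a term, the genotypes were compared within sides. The tumours of a side are not all of like state, since the second axis parted those of side B by genotype. EdgeR's quasi-likelihood test then called 18 genes (0.121%), 7 higher and 11 lower in 16IC, where edgeR's fit with genotype alone called 0 (2335 and 1958 genes had an unadjusted p under 0.05). DESeq2 called 702 with side as a term and 372 with genotype alone, of which 15 were among the 18. The side term was taken from the main axis of the same counts, so these p-values take the sides as known and can be too small. The rise from 0 to 18 calls is therefore a description and adds no support for the sides. Glipr1, a p53-regulated gene of the CAP family, had 38.4, 38.8, 67.1, 3.27 and 2.46 CPM in side A and 13.7, 10.5, 1.01, 1.95 and 1.44 CPM in side B (16IC over EIC -3.56, adjusted p = 0.00751, edgeR), and on each side the EIC tumours were higher. Nkd2 had 59.8 and 40.7 CPM in the 16IC tumours of side A against 137 to 414 CPM in the EIC tumours, and 5.55 to 7.78 CPM against 27.2 and 36.0 CPM in side B (-2.35, adjusted p = 0.0285, edgeR). Pcsk6, a proprotein convertase, had 71.2, 157, 116, 32.8 and 29.5 CPM in side A and 46.3, 58.1, 9.51, 12.4 and 7.34 CPM in side B (-2.15, adjusted p = 0.0208, edgeR).

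Others lower in 16IC were Prtn3, Ctgf (a matricellular protein), Actg2 (a smooth muscle actin), Arnt2, Ramp3, Plekhb2, Dram1 and C130071C03Rik. Higher in 16IC were Tmem56 (2.12, adjusted p = 0.0208, edgeR), Aldoc, Enho, Bhlha15, Slc46a3, Uck1 and Tmed3. Bhlha15 had 5.68, 6.44, 6.99, 30.7 and 23.9 CPM in side A and 32.7, 78.4, 116, 157 and 150.1 CPM in side B, higher in side B and, on each side, in 16IC (16IC over EIC 1.71, adjusted p = 0.0464, edgeR). Arnt2 was higher in side B and lower in 16IC (-2.06, adjusted p = 0.0464, edgeR). Glipr1 overlaps Krr1 and Uck1 overlaps Pomt1 on the opposite strand, so both are uncertain. None of the 18 was called when any of 16IC 1, 16IC 2, 16IC 4 or 16IC 5 was left out (0 calls each), and 73 genes were called without EIC 2.

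Genes of chromosome 4 differed between the sides as a block. Of 918 tested genes on chromosome 4, 133 (14.5%) were apart and higher in side A, against 4.15% of all tested genes, and 18 (1.96%) were apart and higher in side B. The 133 were 21.5% of the 619 genes higher in side A. For genes of average log2 CPM of at least 3, each tumour's median deviation from the mean of side A was taken per region, with side A tumours set against the other 4 of their side. Over 239 such genes of the distal end of chromosome 4, from 130 Mb on, the deviation was -0.84 in EIC 2, -0.78 in EIC 3, -0.87 in 16IC 1, -0.90 in 16IC 3 and -0.86 in 16IC 4. In side A it was -0.07 in EIC 1, -0.08 in EIC 4, 0.04 in EIC 5, 0.08 in 16IC 2 and 0.06 in 16IC 5. The sides were thus far apart, and EIC 3, which lies at the border of the main axis, was here as low as the rest of side B.

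The stretch that was low differed between the side B tumours. From 80 to 130 Mb (227 genes) EIC 2, 16IC 1, 16IC 3 and 16IC 4 had -0.82, -0.83, -0.84 and -0.79, but EIC 3 had -0.04. Below 80 Mb (204 genes) only EIC 2 (-0.84) and 16IC 3 (-0.76) were low, and EIC 3, 16IC 1 and 16IC 4 had 0.00, 0.04 and 0.10. The borders were drawn after the values in windows of 10 Mb were seen. EIC 4 of side A was also low in the windows from 100 to 110 Mb (-0.65, 46 genes) and from 140 to 150 Mb (-0.54, 64 genes), against -0.14 from 110 to 120 Mb and 0.02 from 130 to 140 Mb. DNA was not measured in these samples, and copy number was not tested.

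Of the distal genes from 130 Mb on, 31.0% were apart and higher in side A and 0.418% apart and higher in side B. Several named above lie there, among them Sfn (chromosome 4, 133600556 to 133602168, minus strand), Alpl (chromosome 4, 137741733 to 137796384, minus strand), Id3 (chromosome 4, 136143497 to 136145755, plus strand) and Grhl3 (chromosome 4, 135541888 to 135573630, minus strand). Extl1, a glycosyltransferase of the exostosin family, had 92.8, 56.3, 62.3, 158 and 229 CPM in side A and 2.14, 10.8, 6.56, 11.9 and 4.799 CPM in side B (4.05, SE 0.49). Agrin, Agrn, a basement membrane proteoglycan, had 849, 1135, 934, 646 and 889 CPM in side A and 183, 332, 272, 156 and 123 CPM in side B (1.99, SE 0.26). The median distal gene differed by 0.83, less than Extl1 and Agrn did. Cdkn2a and Cdkn2b, cell cycle inhibitors of the middle stretch, were not apart (2.56 to 29.7 and 9.05 to 92.4 CPM for Cdkn2a).

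Other chromosomes deviated in some tumours only. Chromosome 2 was higher in the 16IC tumours of side B (0.52 in 16IC 1, 0.56 in 16IC 3 and 0.34 in 16IC 4), and chromosome 12 in 16IC 1 (0.41) and 16IC 3 (0.58). EIC 3 had -0.85 on chromosome 19 and 0.37 on chromosome 5, and chromosome 18 was higher in EIC 2 (0.41) and EIC 5 (0.49), tumours of opposite sides. On the other 14 chromosomes every tumour lay between -0.09 and 0.10. With the genes of chromosome 4 left out, the first axis held 42.7% of the variance, all 10 tumours lay on the same sides, and 509 genes were apart and higher in side A and 441 higher in side B. The share of variance was close to the 43.1% of all genes. Only 918 of the 14915 tested genes lie on chromosome 4, so leaving them out cannot show its part in the axis, which was not tested.

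**Figure D5:**
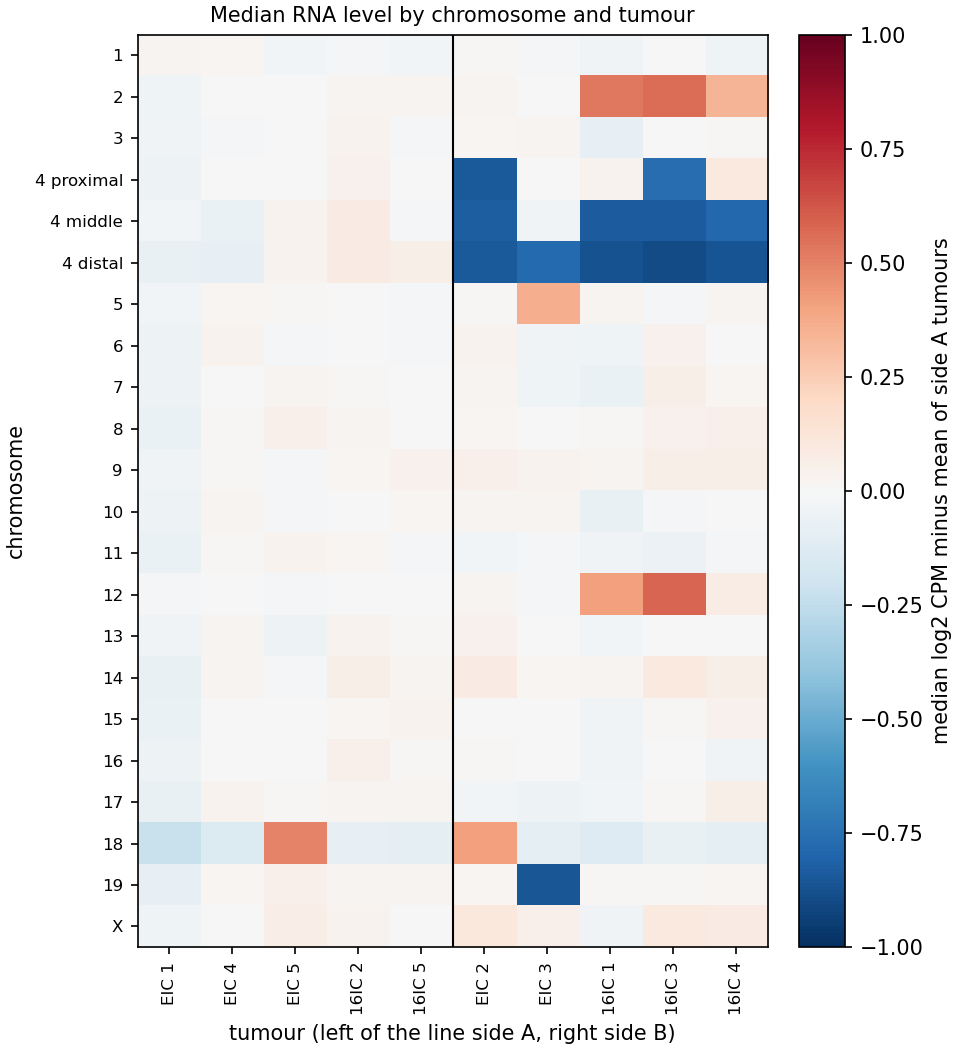
Median deviation of log2 CPM from the mean of side A (colour scale) for each chromosome (rows, with chromosome 4 in 3 stretches) and tumour (columns, side A left of the line). All 5 side B tumours are low in the distal stretch of chromosome 4 (-0.90 to -0.78), 4 in the middle stretch and 2 in the proximal stretch.

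The border tumour EIC 3 was not a blend in all genes. Of the genes apart without EIC 3, those that had also passed the filter in all 10 tumours were looked at. Of 983 such genes higher in side A, EIC 3 lay nearer to side A in 560 (57.0%), and of 704 higher in side B it lay nearer to side A in 287 (40.8%). It was with side A for Krt19 and fibroblast sums. It was with side B for Fetub, the cartilage-type sum, distal chromosome 4, Hk2 and adipocyte sums. Of the 7 apart cartilage-type genes, Col27a1 of EIC 3 (26.4 CPM) was near side A (up to 22.2 CPM). Comp of EIC 3 (192 CPM) lay between the sides, and Col9a1, Col11a1, Col11a2, Cnmd and Sox5 stood with side B. EIC 3 was also between for Lamb3, Wnt7b and Ntn1 (156 CPM, against 246 to 898 in side A). Ntn1 encodes netrin 1, a guidance cue that also acts in mammary cell adhesion. Its values in the other side B tumours were 5.76, 108, 25.7 and 16.5 CPM.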

How the data were processed

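Bulk RNA was measured in 10 tumours, 1 per animal. The tools named in the submitters' processing notes are STAR, HTSeq, Trimmomatic, limma and edgeR, with the build GRCm38 (mm10). Versions, annotation release, strand setting and how multi-mapped reads were treated: not given in the sources used here. The authors deposited 1 table of 26063 genes with raw counts per library, normalized counts (a signal, counts divided by a library factor), FPKM, and log2 fold changes and p-values for the genotypes. Only the deposited counts were tested, and deposited FPKM were used to compare levels between genes. The deposited p-values and log2 values were left aside. No per-sample column was left out (0).

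Tumours were put on the sides by their position on the first principal component of log2 CPM. The members and gene lists were chosen with earlier results of these data known. Counts were filtered with filterByExpr (minimum count 10, genotype as design), which left 14915 genes holding 99.8% of counts, scaled by TMM and fitted with edgeR 4.0.16 (robust quasi-likelihood, genotype and side) in R 4.3.3. Standard errors come from the F statistic. The prior count was 2. Genotype and interaction tests used Benjamini-Hochberg adjustment at 0.05, with DESeq2 1.42.0 as an alternative. The fits were tested on simulated data with known changes and with sides fixed in advance. The real sides were set from the counts, so that test does not cover the effect of this on the genotype and interaction p-values. P-values rest on the spread between animals, 1 tumour each. Those with side in the fit take as known sides that were set from the same counts, and can be too small. With 14813940 to 16947400 counts per library, counting error limits only genes of few counts. The closest libraries, 16IC 2 and 16IC 5, differed beyond sampling noise (chi-square per gene 26.3).

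Genes named are the 5 markers, the 12 largest differences per direction among apart genes (average log2 CPM of at least 2, no predicted-gene name) and up to 4 apart members of each list, or its 2 most abundant where none was apart. Lists of cartilage-type, clock and serine genes, the transcription factors, other genes said to be named after values were seen, and the members of the genotype and interaction calls fall outside that rule, as do Enpp1, Erbb2, Epcam, Cdh1, Top2a and the keratins. Overlaps between genes were taken from GENCODE release M21. Promoters were matched by symbol to RefSeq (GRCm38.p6), with 10806 of 14911 tested symbols matched.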

Additional observations from a re-analysis of the deposited data

Results flagged for a closer look

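Within a side of 5 tumours, a tumour was set apart when its gap to the next, divided by the side's range, passed Dixon's 95% critical value of 0.71. Of 148 groups tested 9 were set apart (6.08%), where chance gives about 5%. In side A these were the total counts of EIC 4 (15690505, gap 0.828), the genes detected in EIC 1 (21499, 0.812), and the low summed macrophage (0.777) and MHC class II (0.824) genes of EIC 4, at 2417 and 532 CPM. In side B, 16IC 1 was low in Dnaic2 (2.52 CPM, 0.817) and Ppp2r2c (4.83 CPM, 0.771) and high in secreted plasma-type and cystatin-family proteins (21559 CPM, 0.841). EIC 3 was low in NRF2 and glutathione genes (3628 CPM, 0.723) and high, at -0.04, in the middle stretch of chromosome 4 (0.941).

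EdgeR's interaction test called 11 genes for a side difference that depended on genotype, with adjusted p-values from 0.04298 to 0.0496. The sides were set from the same counts, so these calls are a description. The set of calls also changed on leaving out a tumour, as given above. The interaction was negative (side A over side B smaller in 16IC) for Apod (-4.576), Ogfr (-2.525), Rtp4 (-4.054), Usp18 (-6.114), H2-T10 (-3.847), Psmb8 (-3.50), Il18bp (-2.218), Ifit1 (-5.869) and Slc44a3 (-1.683). It was positive for Col16a1 (2.566) and Ccdc158 (6.199). Il18bp overlaps Numa1 and Slc44a3 overlaps A530020G20Rik on the opposite strand, and H2-T10 has close copies, so these 3 are uncertain. What the 11 genes share with the genotypes was not tested.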

How the results depend on the processing

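The side difference kept its counts within 1.5 times under total-count scaling, DESeq2 size factors, both other filters, no genotype term and a DESeq2 fit. The same held without chromosome 4, an alternative added after the data were seen. Signs were checked only for genes named by the rule given above. Of these, no gene that was apart changed sign in any of these settings or on leaving out a tumour. The sides were kept fixed and apart genes were picked for not overlapping between them. A change of sign was therefore hardly possible, and its absence adds no support. The median of all genes was -0.01 by TMM, 0.02 by total counts and -0.01 by DESeq2 size factors. Leaving out each tumour in turn gave 1141 to 1741 genes apart, 633 to 1014 higher in side A and 494 to 727 higher in side B, the most without EIC 3. It gave 5 to 12 basal, 7 to 17 fibroblast, 13 to 15 adipocyte, 5 to 9 macrophage, 5 to 14 glycolysis and 7 to 8 prostaglandin genes apart. All 10 tumours lay on their side of 0 on the first axis except EIC 3, which crossed when genes were scaled to unit variance (9 of 10) and when any side A tumour was left out (8 of 9, and 9 of 9 for the other tumours). Centred within genotype, EIC 3 lay 79.7% of the way.

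Genotype calls with side as a term numbered 18, 43 without a filter, 702 by DESeq2, 0 without the side term in edgeR (372 in DESeq2) and 0 to 73 on leaving out a tumour. Interaction calls numbered 11, 562 by DESeq2 and 0 to 61 on leaving out a tumour. The most calls came without EIC 2 in both cases, and the cause was not tested. The difference in total counts was 449636 to 939008 on leaving out a tumour and did not change its call. No paired analysis was possible because the labels give animal names and no shared replicate numbers. Counting depth limits genes near 0, such as Npy in side B (3 counts).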

Other observations

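Side B held a larger share of long non-coding RNA genes among its apart genes. Of 270 tested lincRNA genes 23 (8.52%) were apart and higher in side B and 3 (1.11%) higher in side A, and of 231 antisense genes 11 (4.76%) and 2 (0.866%), against 3.22% and 4.15% of all tested genes. Protein-coding genes gave 422 of 13279 (3.18%) and 597 (4.5%). Antisense genes are uncertain, since the strand setting of the counting is not known. These shares come from the contrast that set the sides and are a description. Of 25 tested plasma-type and cystatin-family proteins 15 were higher in side A and 10 in side B, and their summed levels overlapped. Apart were 5 higher in side A (Rbp4, Hp, Orm1, Cp and Cst3) and 2 higher in side B (Fetub and Trf, transferrin). Among them were Orm1, an acute-phase protein with close copies that make it uncertain (1.06 to 4.095 CPM in side A and 0 to 0.1797 in side B), and Rbp4, the retinol carrier (1.76 to 5.33 and 0 to 0.356 CPM). Tesc, a calcium-binding protein, was even across side B (206 to 487 CPM against 6.66 to 15.8 CPM in side A, log2 difference -5.03, SE 0.31), and Moxd1, a monooxygenase-like protein, was its counterpart in side A (40.3 to 76.7 against 0.937 to 7.37 CPM, 4.36, SE 0.43). Tesc and Moxd1 were chosen for their values.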
